A study of Mus musculus with 6 samples.

Results

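The nucleoporins and nuclear transport factors of RAW264.7 cells are described here in Nop16 siRNA libraries set against control siRNA libraries. Members were chosen by name: protein-coding genes whose symbol starts with Kpna or Kpnb, or with Nup, Ipo, Xpo or Tnpo and a number, and 15 further pore, Ran and export genes. The rule found 58 of the 55401 genes in the count tables, of which 21897 are protein-coding, and they lie on 18 chromosomes. They fall into 29 pore components and 29 soluble transport factors. No measured value decides membership, but the family was put forward with results of this same comparison known, so its counts are given as a description and nothing is read from them. The rule goes by the tables' symbols and misses Nup58 and Nup42, which the tables hold as Nupl1 and Nupl2.

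RAW264.7 is a mouse macrophage line from an ascites tumour raised with Abelson leukaemia virus. RNA of the line was sequenced after poly(A) selection in 3 Nop16 siRNA libraries, whose genotype label is Nop16 KD, and in 3 control siRNA libraries, whose genotype label is WT. The treatment label reads "no" in all 6 libraries, and the treatment text shared by all of them describes Nop16 siRNA at 20 nM for 3 days. Titles of the control libraries read siCont, but which siRNA that was is not stated in those texts. Effects of the Nop16 siRNA or its delivery other than loss of Nop16 cannot be told apart from that loss. No label ties the replicates to separate cultures, and p-values then measure only the spread between these libraries, which may be technical.

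Nuclear pore complexes are ring-shaped channels through the nuclear envelope. A scaffold of Y-shaped complexes and an inner ring, anchored by membrane proteins, holds nucleoporins rich in phenylalanine-glycine repeats that fill the channel. Importins bind cargo in the cytoplasm and let go of it in the nucleus when they bind Ran with GTP, exportins bind cargo together with Ran-GTP, and the exchange factor RCC1 on chromatin keeps nuclear Ran loaded with GTP. Most mRNA leaves by a different route, on the receptor NXF1. Several pore proteins and importins also act in mitosis, and dividing cells build new pores before each division.

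Total counts were 15601477, 17484126 and 18635089 in Nop16 siRNA replicates 1, 2 and 3, against 21799500, 23061922 and 19778237 in the control siRNA replicates, so each Nop16 siRNA library was shallower than each control library. Nop16 itself had 61, 72 and 84 counts in Nop16 siRNA libraries and 388, 437 and 402 counts in control libraries, which left 22.4% of its control level (log2 fold change -2.16 ± 0.12, SE, edgeR adjusted p = 2.94e-23). All 10 macrophage markers were detected, and their summed level ran from 9632 to 10023 CPM (counts scaled by library total and edgeR's TMM factors) in Nop16 siRNA libraries and from 6517 to 6824 CPM in controls. Markers of epithelial cells, fibroblasts, T cells, B cells, neutrophils and erythroid cells each stayed under 1 CPM in every library, and the highest sum of any of these lists was 0.325 CPM. The marker genes did not move together: 6 of 10 were called higher in Nop16 siRNA libraries, 1 was lower (Ptprc, log2 fold change -0.13, edgeR adjusted p = 0.000172), and Adgre1, Spi1 and Tyrobp were not called. Lyz2 alone averaged 2931 CPM in Nop16 siRNA libraries and 1143 CPM in control libraries and made up much of the higher sum. Depth and the summed marker level thus moved with the siRNA. The part of the markers in the values below was not tested, and with all libraries thinned to 15601477 counts 7 members were called higher and 29 lower.

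Promoter letters are shown first for 4 members, picked after their values and letters were seen. Nup210 and Ipo5 had the largest falls among pore components and transport factors. Kpna4 is the importin alpha gene that rose, and the printed bases of Tnpo2 hold 3 of the motifs searched. Rcc1, whose 150 bases before the start hold none of them, and Ipo4, which had the largest rise, are not printed. Each run is the 150 bases before the RefSeq start, read 5′ to 3′ on the gene's strand of GRCm38.p6. Capitals mark the motifs CACGTG (the E-box bound by Myc and related factors), TTTCCCGC (an E2F site), TTTGAA (the cell cycle homology region, CHR) and CCAAT, on either strand, so that ATTGG marks CCAAT on the other strand. The last bases of the Nup210 and Kpna4 windows lie inside the counted gene, which starts slightly upstream of the RefSeq start.
Nup210, chr6:91116827-91116976, minus strand: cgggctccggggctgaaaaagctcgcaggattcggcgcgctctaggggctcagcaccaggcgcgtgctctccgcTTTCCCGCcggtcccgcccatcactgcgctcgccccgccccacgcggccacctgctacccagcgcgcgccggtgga
Ipo5, chr14:120911044-120911193, plus strand: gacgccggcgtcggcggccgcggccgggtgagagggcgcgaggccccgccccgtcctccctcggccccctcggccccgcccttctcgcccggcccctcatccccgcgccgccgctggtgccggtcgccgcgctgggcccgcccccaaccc
Kpna4, chr3:69127093-69127242, minus strand: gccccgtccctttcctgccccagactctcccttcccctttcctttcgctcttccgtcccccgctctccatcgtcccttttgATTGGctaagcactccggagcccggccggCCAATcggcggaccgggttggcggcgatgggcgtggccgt
Tnpo2, chr8:85036743-85036892, plus strand: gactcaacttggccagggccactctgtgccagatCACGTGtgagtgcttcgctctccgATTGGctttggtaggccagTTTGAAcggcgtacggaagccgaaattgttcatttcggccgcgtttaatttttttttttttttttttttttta
The Nup210 bases hold an E2F site, those of Kpna4 hold CCAAT on each strand, and the bases printed for Ipo5 hold none of these letters. Upstream of them, the full window of 250 bases before to 50 bases after that Ipo5 start does hold CCAAT. The full window of Rcc1 likewise holds TTTGAA. Its start, at 132345750 on the minus strand, lies inside the counted gene, whose upstream end is at 132353605. RefSeq also gives Ipo5 and Tnpo2 another start each, whose windows hold none of the motifs; the start nearest to the counted gene's own was used for printing.

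Of the 56 members tested, 28 were lower and 7 were higher in Nop16 siRNA libraries, and 21 did not pass the test. A call is an adjusted p below 0.05 in edgeR's quasi-likelihood test, adjusted over all 14269 genes tested. In that same comparison 45.4% of all tested genes were called, 23% higher and 22.4% lower. Among the 11579 protein-coding genes tested, 49.9% were called, 3058 higher and 2722 lower, beside 62.5% of the members. These shares are the background for every count of a role group or list below. Of the genes tested, 10855 reached 5 CPM in at least 3 libraries, as did 55 of the 56 members. Members were thus less often at low levels than all tested genes, and the part of level in the shares called was not tested. The members' log2 fold changes had a median of -0.16, beside -0.000196 over all tested genes and 0.01 over protein-coding genes, and ran from -1.10 to 0.50. The CPM values of the groups did not overlap for 42 members, 31 with Nop16 siRNA below and 11 with Nop16 siRNA above, where 52.5% of all tested genes had groups that did not overlap. Sizes were small: Nup210 alone passed 2-fold, and Nup210 and Ipo5 were the members past 1.5-fold. In sum the members took 0.480 ± 0.00601% of all counts in Nop16 siRNA libraries and 0.526 ± 0.00648% in control libraries (SD, n = 3 each). In bulk RNA, fewer cells in a given state and less RNA per cell cannot be told apart. The members left untested were Nup62cl, a relative of Nup62 with 0 counts in every library, and Kpna7, an importin alpha known from oocytes and early embryos, with 0, 0.0575 and 0.108 CPM in Nop16 siRNA libraries and 0.0911, 0.0430 and 0.251 CPM in control libraries.

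**Figure D1:**
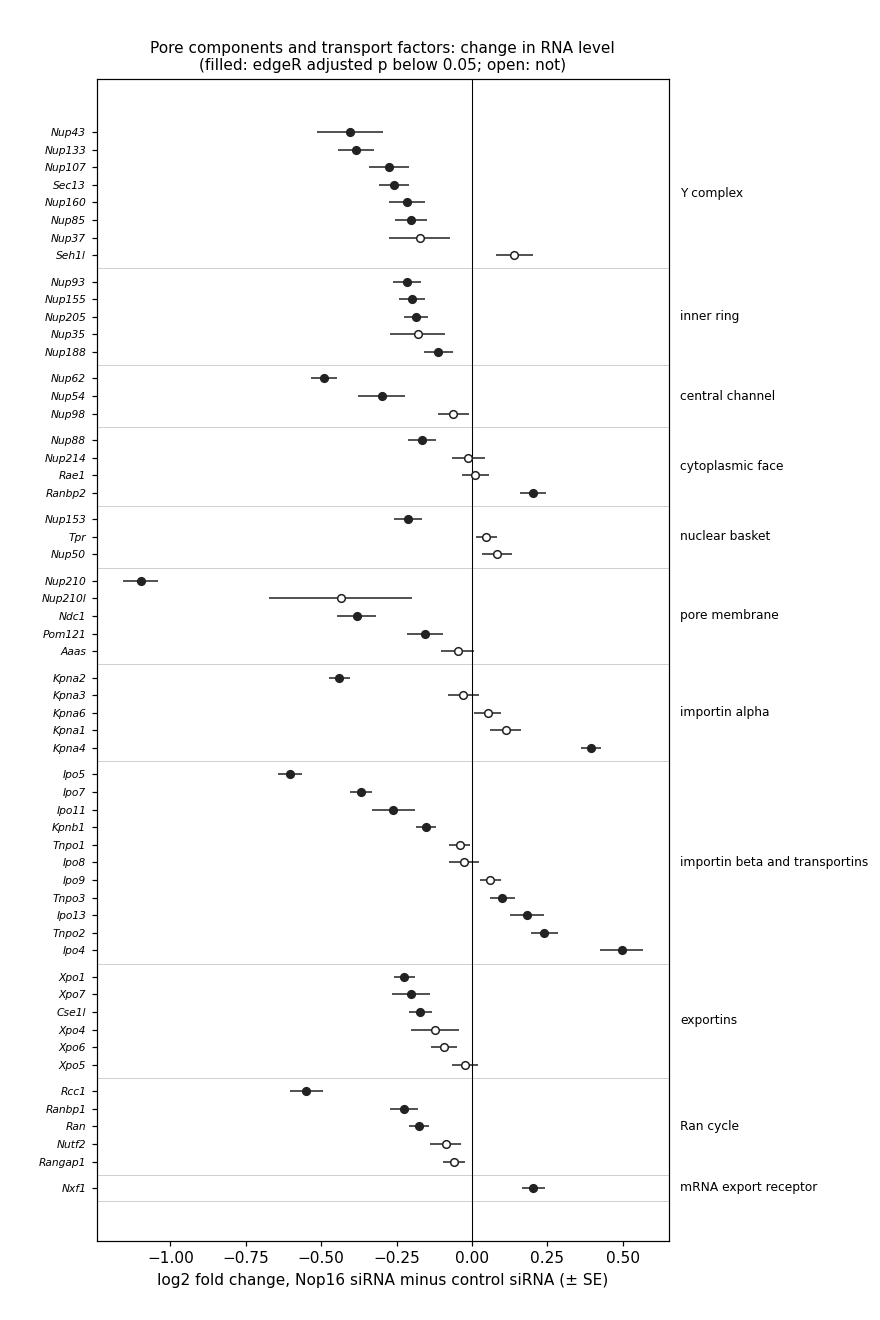
Log2 fold change (Nop16 siRNA minus control siRNA) with its SE for the 56 tested members, grouped by role from the Y complex at the top to the mRNA export receptor at the bottom. Filled points passed the test and open points did not. Called members of the scaffold lie left of 0, down to Nup210 at -1.10 among the membrane proteins, and importins lie on both sides, from Ipo5 at -0.60 to Ipo4 at 0.50.

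Nup210 had the largest change of all members. It encodes gp210, a membrane-spanning nucleoporin that lines the pore wall on the side of the nuclear envelope lumen, and it is known in muscle and T cells as a component that varies with cell type. The gene (chromosome 6, 91013068 to 91116829, minus strand, GRCm38) had 29.0, 33.8 and 33.3 CPM in Nop16 siRNA libraries, against 70.0, 69.1 and 67.2 CPM in control libraries. Each Nop16 siRNA library lay far below each control library. The level was 46.7% of control (log2 fold change -1.10 with an SE of 0.0587, edgeR adjusted p = 3.81e-24). Its E2F letters are printed above.

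Other membrane anchors of the pore moved less. Ndc1, which encodes a transmembrane nucleoporin that helps insert pores into the envelope, had 34.9, 36.8 and 32.3 CPM in Nop16 siRNA libraries, against 46.5, 43.1 and 45.9 CPM in control libraries. The groups did not overlap and Ndc1 fell (log2 fold change -0.38, edgeR adjusted p = 9.01e-07). Pom121, a membrane nucleoporin needed for pore assembly in interphase, was called lower at a log2 fold change of -0.16 (edgeR adjusted p = 0.0276). That call was lost without Nop16 siRNA replicate 1 or 2 or control replicate 2 or 3, where the adjusted p was 0.064 to 0.135. Aaas, which encodes ALADIN, the pore protein mutated in triple A syndrome and the member of this group with the highest level per length, was at 40.0 TPM (counts divided by counted exon length, scaled to the same sum in each library) in both groups and was not called. Nup210l, a relative of Nup210 known from testis, was low at 2.19, 2.70 and 1.95 CPM in Nop16 siRNA libraries and 2.32, 2.88 and 4.12 CPM in control libraries. Its groups overlapped and its log2 fold change of -0.44 did not pass (edgeR adjusted p = 0.134).

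The Y complex, the outer scaffold and an early part of new pores, fell in 6 of its 8 genes. The median log2 fold change of the 8 was -0.24. Nup43 had 9.42, 9.55 and 9.98 CPM in Nop16 siRNA libraries, against 12.8, 12.9 and 12.7 CPM in control libraries. Nup133, which binds curved membrane, had 37.1, 36.1 and 38.3 CPM in Nop16 siRNA libraries, against 50.3, 46.9 and 48.4 CPM in control libraries. Neither gene's groups overlapped, and both were lower (log2 fold changes -0.41 and -0.38, edgeR adjusted p = 0.00162 and 2.29e-07). Nup107, the partner of Nup133 in the stem of the Y, had 30.8, 31.6 and 32.1 CPM in Nop16 siRNA libraries, against 38.9, 37.4 and 38.1 CPM in control libraries (log2 fold change -0.28, edgeR adjusted p = 0.000428). Sec13, which also forms part of the COPII coat of vesicles leaving the endoplasmic reticulum, had 66.9, 60.2 and 62.2 CPM in Nop16 siRNA libraries, against 75.2, 74.0 and 77.3 CPM in control libraries (log2 fold change -0.26, edgeR adjusted p = 1.24e-05). All Nop16 siRNA libraries were below all control libraries for these genes. Nup160 and Nup85 were lower by the same test at log2 fold changes of -0.21 and -0.20. Nup37 (-0.17, adjusted p = 0.158) and Seh1l (0.14, adjusted p = 0.0544) were not called. Seh1l, whose product also sits in a GATOR complex of amino acid sensing, was the gene of the Y complex with a positive value: all its Nop16 siRNA libraries, at 44.9, 46.5 and 44.2 CPM, were above all control libraries, at 42.2, 42.8 and 37.8 CPM, and it passed the test without control replicate 2 (adjusted p = 0.0432). The Y complex together took 0.0294 ± 0.000280% of counts in Nop16 siRNA libraries and 0.0345 ± 0.000626% in control libraries (SD, n = 3 each).

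The inner ring, which holds the pore membrane and binds the central channel proteins, fell in 4 of 5 genes by small amounts. Nup93, the linker of this ring and its most abundant member per length at 37.0 TPM in Nop16 siRNA and 41.7 TPM in control libraries, had 78.8, 71.8 and 75.7 CPM in Nop16 siRNA libraries, against 89.4, 88.4 and 85.0 CPM in control libraries. The groups were apart (log2 fold change -0.22, edgeR adjusted p = 8.29e-05). Nup155 had 85.3, 86.9 and 88.4 CPM in Nop16 siRNA libraries, against 99.1, 99.6 and 100.3 CPM in control libraries (log2 fold change -0.20, edgeR adjusted p = 9.17e-05). Nup205, a large scaffold protein, was lower at -0.19 (edgeR adjusted p = 0.000121). Its relative Nup188, at -0.11, was just inside the threshold (edgeR adjusted p = 0.0483). The Nup188 call was lost under 9 of 17 alternatives, among them leaving out Nop16 siRNA replicate 1, 2 or 3 or control replicate 2 or 3, where the adjusted p was 0.0537 to 0.142. Nup35, at -0.18, was not called (edgeR adjusted p = 0.106) but passed without control replicate 3 (adjusted p = 0.0261).

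Of the central channel, Nup62 showed the clearest fall. NUP62 carries phenylalanine-glycine repeats and forms the channel trimer with NUP54 and NUP58. Nup62 (chromosome 7, 44816088 to 44830812, plus strand) had 81.0, 82.9 and 88.6 CPM in Nop16 siRNA libraries, against 123.0, 114.3 and 118.3 CPM in control libraries. The groups lay well apart, at 71.1% of control (log2 fold change -0.49 ± 0.0432, SE, edgeR adjusted p = 5.48e-15). Nup54 had 23.4, 26.3 and 22.4 CPM in Nop16 siRNA libraries, against 31.5, 27.7 and 29.5 CPM in control libraries. Its groups were closer but did not overlap (log2 fold change -0.30, edgeR adjusted p = 0.00114). The third gene of the trimer, Nup58, outside the rule and listed as Nupl1, averaged 23.9 CPM in Nop16 siRNA and 25.9 CPM in control libraries and was not called (log2 fold change -0.12, edgeR adjusted p = 0.237), and 55.4% of its counted exon length is shared with other gene models. Nup98, whose protein binds RNA export factors and also acts in transcription, was not called at -0.06 (edgeR adjusted p = 0.335). Of the exon length of Nup62, 3.40% is shared with Il4i1, which was itself lower.

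The cytoplasmic face and the nuclear basket held genes on both sides of 0. Ranbp2, the giant SUMO ligase whose filaments receive export complexes, had 125.5, 132.5 and 129.8 CPM in Nop16 siRNA libraries, against 105.5, 122.8 and 108.8 CPM in control libraries. The groups did not overlap, though control replicate 2 came close, and Ranbp2 rose (log2 fold change 0.20, edgeR adjusted p = 0.000142), the one pore component called higher. Nup88, which binds NUP214 at the same face, fell to 81.0, 84.6 and 85.3 CPM in Nop16 siRNA libraries, against 98.1, 94.9 and 88.4 CPM in control libraries (log2 fold change -0.17, edgeR adjusted p = 0.00192). Nup214 and Rae1, an mRNA export factor and the most abundant gene of this group per length, had log2 fold changes of -0.01 and 0.01, and neither was called. In the basket, Nup153 fell to 75.2, 73.1 and 75.2 CPM in Nop16 siRNA libraries, against 87.0, 83.1 and 89.2 CPM in control libraries (log2 fold change -0.21, edgeR adjusted p = 9.73e-05). Tpr, the coiled-coil strut of the basket, was at 59.1 ± 3.26 TPM in Nop16 siRNA and 55.5 ± 2.07 TPM in control libraries (SD, n = 3 each) and Nup50 had a log2 fold change of 0.08. Neither passed the test. Without Nop16 siRNA replicate 1, Tpr passed at an adjusted p of 0.0369. Nup42 of the cytoplasmic face, outside the rule and listed as Nupl2, averaged 10.2 CPM in Nop16 siRNA and 8.54 CPM in control libraries and was not called (edgeR adjusted p = 0.0795).

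**Figure D2:**
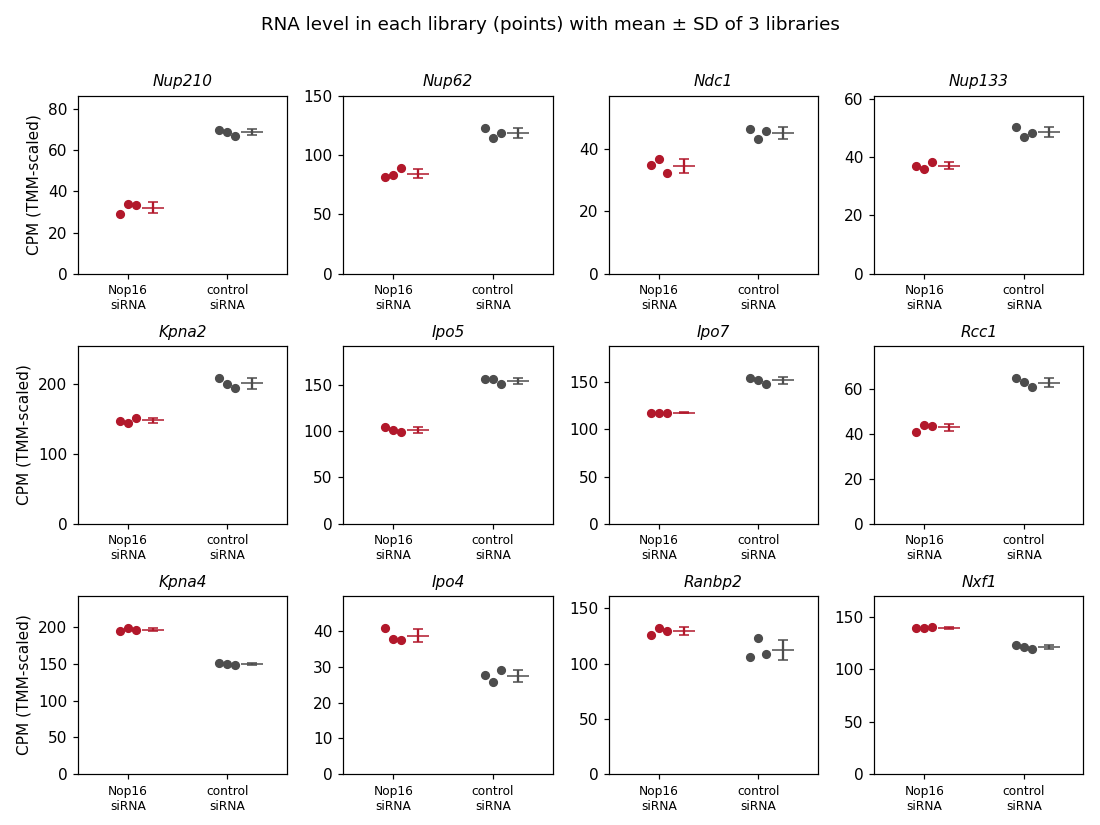
CPM (TMM-scaled, y axis from 0) in each library for 12 members, with points for the 3 Nop16 siRNA and the 3 control siRNA libraries and bars for mean ± SD. Nup210 sits near 30 CPM in Nop16 siRNA libraries and near 70 CPM in control libraries. In all 12 panels the groups are separate, with Kpna4, Ipo4, Ranbp2 and Nxf1 higher in Nop16 siRNA libraries. The 12 were picked by hand from called members, so their separation follows from that choice. Among the tested members, 14 had groups that overlapped.

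Of 5 importin alpha genes tested, Kpna2 was lower, Kpna4 was higher and 3 were not called. The share called was 40%, below the 45.4% of all tested genes. Importin alpha adaptors read the classical nuclear localization signal and hand cargo to importin beta, and the paralogs differ in the cargo they favour. Kpna2 (chromosome 11, 106988629 to 106999541, minus strand), the paralog known for high levels in dividing and tumour cells, had 147.1, 144.4 and 151.2 CPM in Nop16 siRNA libraries, against 208.4, 198.8 and 193.3 CPM in control libraries. Kpna4 (chromosome 3, 69067149 to 69127113, minus strand), whose product importin alpha 3 is known to carry NF-kB subunits, had 194.7, 199.3 and 195.4 CPM in Nop16 siRNA libraries, against 150.6, 150.0 and 147.9 CPM in control libraries. All Nop16 siRNA libraries lay below all controls for Kpna2 and above all controls for Kpna4. Kpna2 fell to 73.7% of control (log2 fold change -0.44 ± 0.0358, SE, edgeR adjusted p = 2.78e-16). Kpna4 rose to 131% of control (log2 fold change 0.39 ± 0.0344, SE, edgeR adjusted p = 4.45e-15). Kpna3, the closest relative of Kpna4, had 62.0, 73.5 and 69.9 CPM in Nop16 siRNA libraries and 71.4, 68.8 and 69.8 CPM in control libraries. Its groups overlapped and it was not called (log2 fold change -0.03, edgeR adjusted p = 0.681). Kpna6 (0.05, adjusted p = 0.374) and Kpna1 (0.11, adjusted p = 0.0702), which encode paralogs of a further subfamily, were not called either, and Kpna1 passed without Nop16 siRNA replicate 1 (adjusted p = 0.0451).

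Per length, Kpna2 was the most abundant importin alpha in both groups. Its share of the summed TPM of the family was 46.7 ± 0.999% in Nop16 siRNA libraries and 56.9 ± 0.884% in control libraries, while the share of Kpna4 was 20.0 ± 0.357% in Nop16 siRNA libraries and 13.7 ± 0.196% in control libraries (SD, n = 3 each). Summed TPM of the family was 225, 233 and 232 in Nop16 siRNA libraries, against 252, 249 and 243 in control libraries. On this per-length scale the family sum was thus lower in each Nop16 siRNA library. A fragment of Kpna2, with 2873 counted bases, weighs more there than one of Kpna4, with 8940. As a share of all counts the groups overlapped. The family took 0.0551, 0.0566 and 0.0564% in Nop16 siRNA libraries and 0.0577, 0.0570 and 0.0559% in control libraries. The Kpna2 level carries a limit from the counting, which let a fragment count for several genes: its coding sequence matches 12 other genes, 11 of them pseudogenes, at 90% identity or more over at least 100 bases. These copies summed to 97.8 CPM in Nop16 siRNA and 139 CPM in control libraries. The nearest copies, Gm10184 and Gm10259, were themselves called lower, at log2 fold changes of -0.51 and -0.50, and which gene their fragments came from was not tested. Kpna2-ps, a pseudogene, is outside the rule.

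Importin beta genes and transportins split evenly, with 4 of 11 lower and 4 higher. Ipo5 (chromosome 14, 120911224 to 120947999, plus strand), a receptor that imports ribosomal proteins and histones, had 104.7, 100.9 and 98.4 CPM in Nop16 siRNA libraries, against 155.6, 155.6 and 150.4 CPM in control libraries. The groups were far apart, at 65.8% of control (log2 fold change -0.60 ± 0.0386, SE, edgeR adjusted p = 1.14e-20). Ipo7, which also imports ribosomal proteins and histone H1, had 117.1, 117.8 and 117.7 CPM in Nop16 siRNA libraries, against 154.5, 152.8 and 147.9 CPM in control libraries. The Nop16 siRNA libraries were nearly level with each other and below every control (log2 fold change -0.37, edgeR adjusted p = 8.86e-13). Ipo11, an importer of ubiquitin-conjugating enzymes, fell to 32.0, 28.4 and 28.9 CPM in Nop16 siRNA libraries, against 37.5, 36.4 and 32.9 CPM in control libraries (log2 fold change -0.26, edgeR adjusted p = 0.00194). Kpnb1, importin beta itself and the most abundant of this group per length, had 268.2, 292.7 and 282.2 CPM in Nop16 siRNA libraries, against 327.4, 302.9 and 308.0 CPM in control libraries. Its groups lay close together without overlap (log2 fold change -0.15, edgeR adjusted p = 0.000104).

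Ipo4 had the largest rise of all members. It encodes importin 4, a carrier of histones H3 and H4 with their chaperone. The gene (chromosome 14, 55625400 to 55635957, minus strand) had 40.9, 37.8 and 37.7 CPM in Nop16 siRNA libraries, against 27.6, 25.7 and 29.2 CPM in control libraries. The groups were apart, at 1.41-fold of control (log2 fold change 0.50 ± 0.0705, SE, edgeR adjusted p = 2.45e-08). The gene model Gm49378 covers 55.3% of its exon length and was also higher (log2 fold change 0.24, 42.4 CPM in Nop16 siRNA and 35.8 CPM in control libraries), so the Ipo4 count is uncertain. Tnpo2 (chromosome 8, 85036915 to 85057583, plus strand), a transportin for RNA-binding proteins whose promoter is printed above, had 86.7, 87.8 and 90.1 CPM in Nop16 siRNA libraries, against 75.8, 74.6 and 73.7 CPM in control libraries. It rose with separate groups (log2 fold change 0.24, edgeR adjusted p = 1.08e-05). Ipo13, which works in both directions, had 48.5, 51.9 and 52.7 CPM in Nop16 siRNA libraries, against 45.3, 44.4 and 45.5 CPM in control libraries (log2 fold change 0.18, edgeR adjusted p = 0.00668). That call was lost without Nop16 siRNA replicate 3 (adjusted p = 0.0537). Tnpo3, the carrier of SR splicing factors, was called at 0.10 with an edgeR adjusted p of 0.0442, and the call was lost under 10 of 17 alternatives. Among these was leaving out any library of either group, where the adjusted p was 0.0533 to 0.178. Tnpo1, Ipo8 and Ipo9 were not called, at log2 fold changes of -0.04, -0.03 and 0.06.

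Exportin genes had 3 of 6 members lower and none higher (50% called, near the 45.4% of all tested genes). Xpo1, which encodes the main exporter of proteins with leucine-rich signals and of ribosomal subunits, had 159.0, 165.6 and 160.2 CPM in Nop16 siRNA libraries, against 196.7, 186.5 and 183.2 CPM in control libraries. Cse1l, the exporter that returns importin alpha to the cytoplasm, had 118.1, 122.7 and 124.1 CPM in Nop16 siRNA libraries, against 139.1, 134.5 and 137.7 CPM in control libraries. For both genes every Nop16 siRNA library was below every control (log2 fold changes -0.22 and -0.17, edgeR adjusted p = 3.04e-07 and 0.000136). Xpo7 was lower at -0.20 (edgeR adjusted p = 0.00552), with 37.0, 42.3 and 41.8 CPM in Nop16 siRNA libraries and 48.8, 47.4 and 43.3 CPM in control libraries. Without Nop16 siRNA replicate 1, its lowest library, the Xpo7 call was lost (adjusted p = 0.0694). Xpo5, which carries microRNA precursors, was not called at -0.02, nor were Xpo6, the exporter of actin with profilin, at -0.09 (adjusted p = 0.069) and Xpo4 at -0.12. Without control replicate 2, Xpo6 was called lower (adjusted p = 0.038).

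The Ran cycle fell in 3 of its 5 genes, led by the exchange factor. Rcc1 (chromosome 4, 132331919 to 132353605, minus strand) had 41.0, 44.0 and 43.7 CPM in Nop16 siRNA libraries, against 64.7, 63.0 and 60.8 CPM in control libraries. Each Nop16 siRNA library lay well below each control, at 68.3% of control (log2 fold change -0.55 ± 0.055, SE, edgeR adjusted p = 5.86e-13). Ran (chromosome 5, 129020069 to 129024323, plus strand), the GTPase, had 227.8, 230.0 and 237.7 CPM in Nop16 siRNA libraries, against 262.6, 255.4 and 267.7 CPM in control libraries. Ranbp1, a cofactor of GTP hydrolysis, had 79.8, 74.5 and 76.4 CPM in Nop16 siRNA libraries, against 94.5, 86.3 and 88.8 CPM in control libraries. Both had separate groups and fell (log2 fold changes -0.18 and -0.23, edgeR adjusted p = 7.22e-06 and 4.46e-05). Rangap1, the activating protein that makes Ran hydrolyse GTP at the cytoplasmic face, had 176.2, 175.7 and 185.5 CPM in Nop16 siRNA libraries and 193.5, 182.8 and 184.0 CPM in control libraries. Nutf2, which carries Ran back into the nucleus, had 63.6, 60.3 and 61.9 CPM in Nop16 siRNA libraries and 64.4, 62.7 and 70.5 CPM in control libraries. The groups of both overlapped and neither was called (log2 fold changes -0.06 and -0.09, edgeR adjusted p = 0.168 each). Ranbp1 shares 16.9% of its exon length with Gm49776, which was also lower at -0.26, and near-identical copies of Nutf2 summed to 36.0 CPM in Nop16 siRNA and 37.2 CPM in control libraries. Genes that match Ran at 90% identity or more summed to 7.55 CPM in Nop16 siRNA and 8.45 CPM in control libraries, small beside Ran itself.

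Nxf1, the receptor that carries bulk mRNA through the pore, rose. The gene (chromosome 19, 8757073 to 8770922, plus strand) had 139.2, 139.7 and 140.7 CPM in Nop16 siRNA libraries, against 123.8, 121.5 and 119.2 CPM in control libraries. Libraries of a group were close together and the groups were apart (log2 fold change 0.20 ± 0.0374, SE, edgeR adjusted p = 6.84e-06).

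Per length, Ran had the highest level of the family, at 183 ± 3.50 TPM in Nop16 siRNA libraries and 201 ± 4.33 TPM in control libraries. Kpna2 came next at 107 ± 1.70 TPM in Nop16 siRNA and 141 ± 4.71 TPM in control libraries, followed by Ranbp1 at 96.5 ± 2.96 TPM in Nop16 siRNA and 109 ± 4.37 TPM in control libraries and Kpnb1 at 89.2 ± 4.43 TPM in Nop16 siRNA and 96.3 ± 3.34 TPM in control libraries (SD, n = 3 each). The order of these 4 was the same in both groups, and within each group their ranges did not overlap. Soluble carriers and the Ran genes thus led the order. Among pore components Rae1 was highest in Nop16 siRNA libraries, at 72.3 ± 2.44 TPM beside 61.7 ± 2.67 TPM for Nup62, and Nup62 was highest in control libraries, at 84.2 ± 2.54 TPM beside 69.6 ± 0.918 TPM for Rae1. Nup210 stood at place 53 of the 58 members in Nop16 siRNA libraries and at place 43 in control libraries. At the low end were Xpo4, at 4.57 TPM in Nop16 siRNA and 4.82 TPM in control libraries, Xpo7, at 4.44 TPM in Nop16 siRNA and 4.97 TPM in control libraries, and Nup210l, at 0.835 TPM in Nop16 siRNA and 1.10 TPM in control libraries. The ranges of Xpo4 and Xpo7 overlapped in each group, so their order is undecided. Counted length takes in every annotated exon of a gene and bears on this order of levels. Xpo7, with 19005 counted bases, averaged 46.5 CPM in control libraries. Nup43, with 2560 counted bases, averaged 12.8 CPM there but stood higher per length, at 10.1 TPM.

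**Figure D3:**
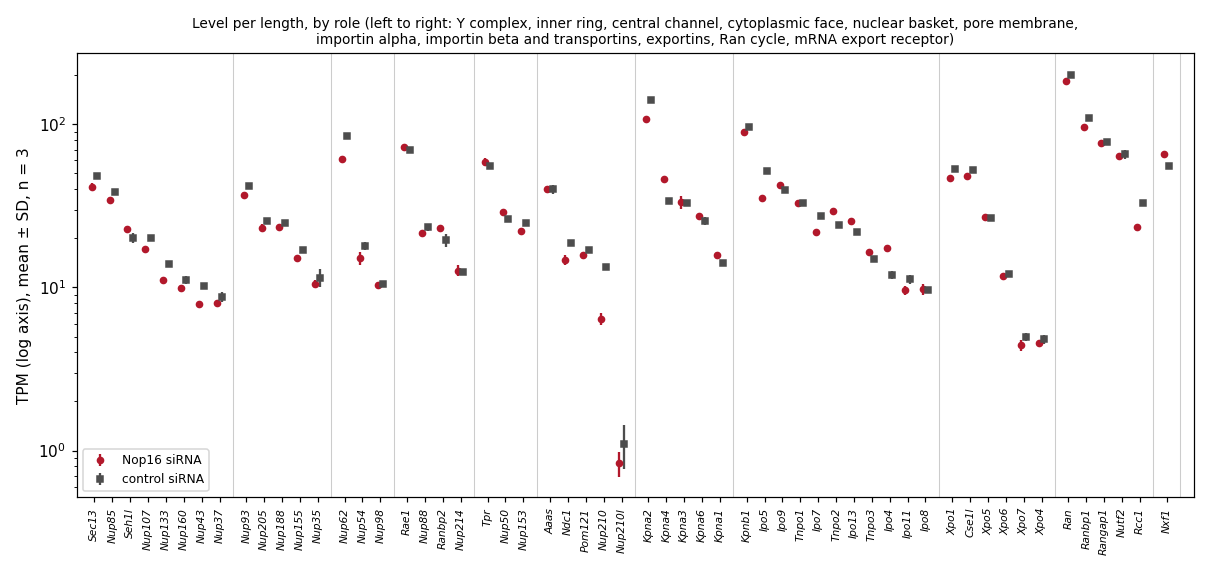
Level per length in TPM (log axis, mean ± SD of 3 libraries) for the 56 tested members, ordered by role and then by level, with circles for Nop16 siRNA and squares for control siRNA. Ran stands highest at 183 TPM in Nop16 siRNA and 201 TPM in control libraries, Nup210l lowest at 0.835 TPM in Nop16 siRNA and 1.10 TPM in control libraries, and the largest gap between the symbols is at Nup210.

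Pore components and transport factors differed in the mix of directions, given here without a test of the difference. Among 28 tested pore components 17 were lower and 1 higher, with a median log2 fold change of -0.19. Among 28 tested transport factors 11 were lower and 6 higher, with a median of -0.07. Log2 fold changes were weakly related to counted exon length and to level over the 56 members (Spearman rho 0.22 for each, across genes, which share the same 6 libraries), and over all 14269 tested genes these were 0.00993 and 0.0512. The relation to level differed in sign between the kinds of member, at 0.39 over 28 pore components and -0.12 over 28 transport factors, while that to length was 0.20 over pore components and 0.16 over transport factors.

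**Figure D4:**
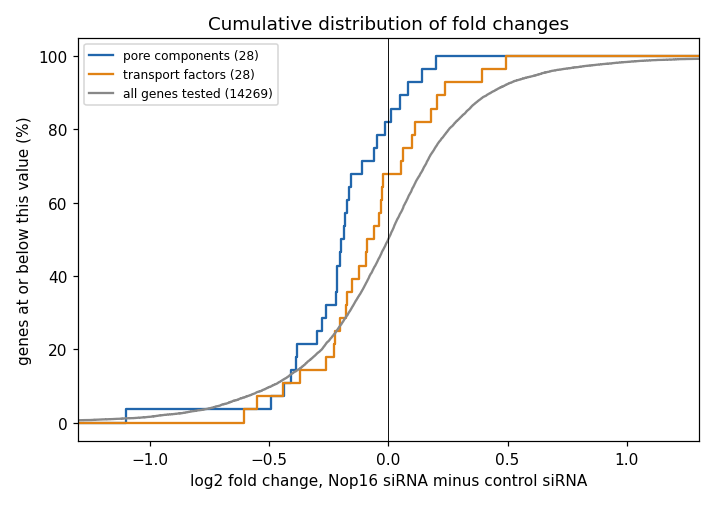
Cumulative share of genes (y axis, percent) at or below each log2 fold change (x axis, Nop16 siRNA minus control siRNA) for 28 pore components, 28 transport factors and all 14269 genes tested. The curve of pore components crosses 50% near -0.19 and that of transport factors near -0.07, while the curve of all genes crosses at about 0. Neither family curve reaches beyond 0.50 on the right.

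Genes of nuclear transport outside the rule were also read from the same fit, as a list chosen by function. Of 32 such genes, all tested, 10 were lower, 1 was higher and the median log2 fold change was -0.02. The share called was 34.4%, below the 45.4% of all tested genes. Nxt2, a partner of NXF1, and Alyref, an adaptor that loads NXF1 on mRNA, fell at -0.49 and -0.48 (edgeR adjusted p = 6.98e-12 and 8.88e-12), while Nxf1 rose. Nxt2 had 53.2, 53.8 and 50.3 CPM in Nop16 siRNA libraries, against 74.9, 76.5 and 68.5 CPM in control libraries. Alyref had 50.1, 48.4 and 47.6 CPM in Nop16 siRNA libraries, against 69.7, 66.2 and 68.1 CPM in control libraries. Neither gene's groups overlapped. Further members of the list called lower were Thoc2 and Thoc6 of the THO complex, the export helicase genes Ddx39, Ddx39b and Ddx19a, and also Gle1, Nxt1 and Senp1. Senp2, a SUMO protease that docks at the pore, was the gene of the list called higher: it had 97.2, 104.5 and 103.0 CPM in Nop16 siRNA libraries, against 68.0, 67.2 and 62.8 CPM in control libraries (log2 fold change 0.62, edgeR adjusted p = 7.66e-18).

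In the envelope around the pores, 7 of 13 nuclear envelope and lamina genes were lower and 1 was higher (61.5% called, beside 45.4% of all tested genes). Lmnb1, lamin B1, had 37.4, 38.2 and 41.0 CPM in Nop16 siRNA libraries, against 64.0, 61.7 and 63.8 CPM in control libraries. Lbr, the lamin B receptor and a sterol reductase, had 90.2, 98.9 and 99.7 CPM in Nop16 siRNA libraries, against 160.1, 150.4 and 151.3 CPM in control libraries. Both had groups far apart (log2 fold changes -0.70 and -0.68, edgeR adjusted p = 1.54e-16 and 7.25e-22). Tor1a, an ATPase of the envelope lumen, was higher at 0.18 (edgeR adjusted p = 0.00697). Spindle factors that importins hold inactive in mitosis were lower in 6 of 6 genes, where 22.4% of all tested genes were lower. Their median log2 fold change was -0.78. Nusap1 and Kif22 led at -0.99 and -0.98 (edgeR adjusted p = 3.71e-23 and 3.34e-22), with Nusap1 at 34.7, 38.8 and 35.9 CPM in Nop16 siRNA libraries, against 75.4, 71.1 and 71.3 CPM in control libraries. These genes of dividing cells moved with the members that fell, and their part in the values was not tested.

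Promoter letters were compared over the RefSeq windows of 250 bases before to 50 bases after each start, on both strands. RefSeq promoters were matched for 47 of 58 members, with 56 windows, and were set beside 32851 windows of all genes. CACGTG, which reads the same on both strands, was in 8 member windows (14.3%) and in 7.15% of all windows. The members with it were Ipo4, Ipo7, Nup54, Nup93, Nup188, Ran, Ranbp2 and Tnpo2. That is 5 of 26 windows of members called lower, 3 of 9 windows of members called higher and 0 of 19 windows of members not called. TTTCCCGC was in the windows of Nup210 and Ranbp1 (3.57%, beside 1.07% of all windows), and TTTGGCGC, a second E2F site, in none (0.514% of all windows). TTTGAA was in 15 member windows (26.8%, beside 17.9% of all windows) and CCAAT in 25 (44.6%, beside 37.4%). By call, TTTGAA was in 7 of 26 windows of members called lower, 2 of 9 called higher and 5 of 19 not called. CCAAT was in 11 of 26 windows of members called lower, 2 of 9 called higher and 10 of 19 not called. No split by call was tested. These are matches of letters in fixed windows and describe no binding.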

How the data were processed

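Poly(A)-selected RNA was sequenced from directional libraries of 3 Nop16 siRNA and 3 control siRNA samples, per the labels' protocols. The deposited values are raw counts per gene, made by the authors with featureCounts 2.0.1 on Ensembl release 101 models of GRCm38, per the file headers. Only properly paired fragments were counted, with strand setting 2 and at least 10 overlapping bases, per the same headers. Multi-mapped fragments, and those over several genes, were kept, so 1 fragment can count for several genes and counts of paralogs and overlapping genes are uncertain. The submitters' processing notes name Trim Galore and HISAT2 2.2.1. A gene filter named in the headers is not described.

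Counts were tested with edgeR 4.0.16 (R 4.3.3): TMM, filterByExpr, the robust quasi-likelihood fit and Benjamini-Hochberg adjustment over 14269 genes. SE is the absolute log2 fold change over the root of F. CPM is TMM-scaled, and TPM was computed from counts and counted exon length. No call rests on TPM. Levels set between genes, the importin alpha shares and sums, and group values printed in TPM do. Total counts ran from 15601477 to 23061922, at which 3 counts are 0.129 to 0.194 CPM. Libraries of a group differed by a chi-square per degree of freedom of 2.52 to 3.12. The test was tried on simulated counts with 50 changed genes at each fold. It found 40% of 1.2-fold, 94% of 1.5-fold and 100% of 2-fold and 3-fold changes. Of its 175 calls 4.57% were false. The changed genes were drawn only from those above a CPM floor in control libraries, so the shares found do not cover genes at low levels. Far fewer genes were changed there than were called in these data. Similar genes were found with BLAST 2.17.0 (at least 90% identity over 100 bases of coding sequence of GENCODE release 21), and promoters are RefSeq's, on GRCm38.p6. Symbols matched 55141 identifiers.

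The members, role groups and lists were chosen with earlier results of these data known. Genes named were Nop16, up to 4 called members of each role group with the largest change, the most abundant of each group per length, every importin alpha and Ran cycle gene tested, and the 2 most changed genes per direction of each list. Other members are named for their counts and were chosen after their values were seen. DESeq2 1.42.0, limma-voom (limma 3.58.1), other scalings and filters, robust fitting off, a replicate block and leaving out each library were tried as alternatives. Thinning, protein-coding genes only and removal of a length trend were added after seeing the data. Protein sequences were not used here.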

Additional observations from a re-analysis of the deposited data

How the results depend on the processing

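Under 17 alternatives, 30 members kept their call in every setting, 14 were uncalled in every setting and 12 changed, and no called member changed sign. Members called higher numbered 5 to 10 and members called lower 25 to 30, and the members' median log2 fold change ran from -0.18 to -0.13. Calls that depended on the setting were those of Tnpo3, Nup188, Pom121, Xpo7 and Ipo13, which were lost in some, and of Xpo6, Kpna1, Tpr, Ipo9, Nup35, Rangap1 and Seh1l, which were gained in some. With the length trend removed, 2 other nuclear transport genes were called higher, where 1 was called otherwise, and the cause was not tested. Same-numbered libraries did not deviate together (correlations of 0.0175, -0.0198 and -0.0223). No label states a pairing, and with 3 libraries a group these values cannot decide whether there was one. With the replicate block 8 members were called higher and 28 lower, Seh1l being the gene gained. Leaving out a library left 5 to 8 members called higher and 25 to 28 lower. With library size alone as the scaling, the median of all genes was -0.02. With 3 libraries a group, a member that was not called may still have changed by a small amount.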
